A study of Mus musculus with 12 samples.

Results

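The genes described here encode the subunits of the constitutive proteasome, its activators and its assembly chaperones. They were taken by symbol, as the protein-coding genes named Psma to Psmg with a number, without the 3 immunoproteasome subunits Psmb8, Psmb9 and Psmb10 and with a mean of at least 1 CPM (counts scaled to a common library total) over the 12 libraries. Of 55471 genes in the table, 47 carried such a symbol and 46 passed the minimum. Psmb11, the thymus-specific beta subunit, stood outside at a mean of 0.109 CPM, and the lowest members inside were Psme2b at 5.37 and Psma8 at 5.41 CPM. All 46 also passed the filter on low counts, which left 17063 genes for testing. RNA was sequenced from LSK cells (lineage-negative, Sca1-positive and Kit-positive bone marrow cells, the fraction that holds blood stem cells and early progenitors) of mice that had received a first transplant, 6 weeks after tamoxifen. The groups were HOXA9_KO (the homeobox factor Hoxa9), Bcat_KO (β-catenin, gene Ctnnb1), dKO (both genes) and WT, with 2 libraries each. PRMT1_KO (the arginine methyltransferase Prmt1) and WT_PRMT1 also had 2 libraries each. By their names, PRMT1_KO was set against WT_PRMT1 and the other knockouts against WT. The labels name no experiment or batch, and the tag S4 occurs in both Bcat_KO and HOXA9_KO. The titles call the groups KO and the genotype field calls them knockdowns, with the Cre driver and alleles not given in the sources used here, and tamoxifen is the only agent named. The labels do not say whether both libraries of a group represent different animals, so p-values measure the spread between these libraries, which may be technical.

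The proteasome is the chamber that breaks down proteins tagged with ubiquitin. Its core particle (20S) stacks outer rings of alpha subunits, which form the gate, on inner rings of beta subunits, of which Psmb5, Psmb6 and Psmb7 carry the cutting sites. The regulatory particle (19S) sits on the gate: a ring of ATPases unfolds the substrate, and non-ATPase subunits bind ubiquitin chains and remove them. Other caps can take its place, and the core is built with the help of dedicated chaperones. Blood stem cells are known to have low protein synthesis and to depend on protein quality control, and subunit genes are known to rise together through the transcription factor Nfe2l1 when proteasome activity is limiting.

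Promoter windows, from 250 bases before to 50 bases after the transcription start, were available for 38 of the 46 members, in 41 windows (RefSeq, GRCm38.p6). Shown are 6, picked after their values were seen: the alpha subunit Psma4 and its neighbour in the ring Psma2, the beta subunit Psmb5, the lid subunit Psmd11, the ATPase Psmc4 and the activator Psme4, which between them moved in different directions across the knockouts. Capitals mark matches, on either strand, to 4 motifs: TGACNNNGC (the antioxidant response element core), CCGGAAG (an ETS core), the CCAAT box and the palindromic core bound by nuclear respiratory factor 1.
Psma4 promoter, chr9:54950609-54950908, plus strand: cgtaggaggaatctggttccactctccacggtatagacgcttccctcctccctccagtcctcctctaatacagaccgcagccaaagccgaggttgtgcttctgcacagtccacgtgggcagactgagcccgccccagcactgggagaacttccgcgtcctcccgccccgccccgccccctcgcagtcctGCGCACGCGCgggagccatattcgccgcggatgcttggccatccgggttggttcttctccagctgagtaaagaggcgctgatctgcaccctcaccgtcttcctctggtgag
Psma2 promoter, chr13:14612992-14613291, plus strand: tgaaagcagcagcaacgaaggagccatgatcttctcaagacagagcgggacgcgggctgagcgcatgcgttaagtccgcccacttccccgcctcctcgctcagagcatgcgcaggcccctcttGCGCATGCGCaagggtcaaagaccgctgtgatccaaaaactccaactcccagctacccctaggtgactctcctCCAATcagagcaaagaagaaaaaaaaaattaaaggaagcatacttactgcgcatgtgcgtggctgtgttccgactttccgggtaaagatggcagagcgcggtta
Psmb5 promoter, chr14:54617946-54618245, minus strand: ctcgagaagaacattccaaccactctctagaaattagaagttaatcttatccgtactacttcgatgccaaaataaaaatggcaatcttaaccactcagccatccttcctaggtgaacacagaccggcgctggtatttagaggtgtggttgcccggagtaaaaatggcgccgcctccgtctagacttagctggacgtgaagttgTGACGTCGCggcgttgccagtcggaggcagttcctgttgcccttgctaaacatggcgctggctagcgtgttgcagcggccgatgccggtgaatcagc
Psmd11 promoter, chr11:80428365-80428664, plus strand: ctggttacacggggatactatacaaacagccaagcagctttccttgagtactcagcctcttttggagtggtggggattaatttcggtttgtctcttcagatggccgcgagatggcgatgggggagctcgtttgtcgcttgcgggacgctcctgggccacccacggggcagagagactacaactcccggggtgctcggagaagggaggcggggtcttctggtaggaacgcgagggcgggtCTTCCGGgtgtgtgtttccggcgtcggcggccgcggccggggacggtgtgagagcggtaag
Psmc4 promoter, chr7:28050043-28050342, minus strand: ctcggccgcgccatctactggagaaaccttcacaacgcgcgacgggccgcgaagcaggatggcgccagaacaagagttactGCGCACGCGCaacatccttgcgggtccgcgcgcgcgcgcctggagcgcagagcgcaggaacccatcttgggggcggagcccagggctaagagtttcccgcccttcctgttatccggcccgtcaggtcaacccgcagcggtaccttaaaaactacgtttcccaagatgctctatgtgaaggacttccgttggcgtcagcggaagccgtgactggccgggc
Psme4 promoter, chr11:30771525-30771824, plus strand: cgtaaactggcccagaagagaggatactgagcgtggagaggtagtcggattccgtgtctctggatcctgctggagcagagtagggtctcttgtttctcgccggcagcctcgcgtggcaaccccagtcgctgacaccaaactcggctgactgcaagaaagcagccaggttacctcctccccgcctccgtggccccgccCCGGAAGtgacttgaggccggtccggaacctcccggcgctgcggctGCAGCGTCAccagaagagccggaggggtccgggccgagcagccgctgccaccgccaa

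Among the windows of the members, 39.0% held CCGGAAG, against 8.86% of all 32851 promoter windows, and 17.1% held the nuclear respiratory factor 1 core, against 4.60%. The other motifs stood near their general share, with TGACNNNGC in 14.6% of the members' windows, against 12.4% of all, and CCAAT in 31.7%, against 37.4%. Psma4, Psma2 and Psmc4 held the nuclear respiratory factor 1 core, Psmd11 and Psme4 the ETS core, Psmb5 and Psme4 the antioxidant core, and Psma2 a CCAAT box as well. These are matches of letters, and binding was not measured.

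By role, the 46 genes comprised 8 alpha subunits, 7 beta subunits, 6 ATPases, 11 non-ATPases, 5 activators or inhibitors, 7 assembly chaperones and 2 others. Per kilobase of exon, the levels averaged over the 12 libraries ran between 2.17 CPM for Psma8, the testis form of an alpha subunit, and 156 CPM for Psme1, a subunit of the interferon-inducible 11S cap. The median was 61.7 CPM per kilobase for alpha subunits, 77.6 for beta subunits, 74.3 for ATPases, 40.4 for non-ATPases and 17.7 for chaperones. Neither of the 2 others is a plain subunit gene: Psmc3ip encodes a cofactor of meiotic recombination rather than a subunit, and Psme2b is a single copy 99.37% identical over 794 bases to Psme2, so that reads of the pair can be exchanged. Opposite-strand neighbours also cover 25.5% of the exons of Psmd9, 21.2% of Psmc3ip, 11.8% of Psmb7 (gene Nek6), 10.1% of Psmd13 (Sirt3) and 8.25% of Psmc3 (Slc39a13), with the strand setting not given in the sources used here. Same-strand neighbours cover 12.1% of the exons of Psmb5 (Mir686), 9.68% of Psmg3 (Gm26938), 4.90% of Psme2b (9930111J21Rik1) and 4.14% of Psmd1 (Gm21972). The effect of these overlaps on the counts was not tested.

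**Figure D1:**
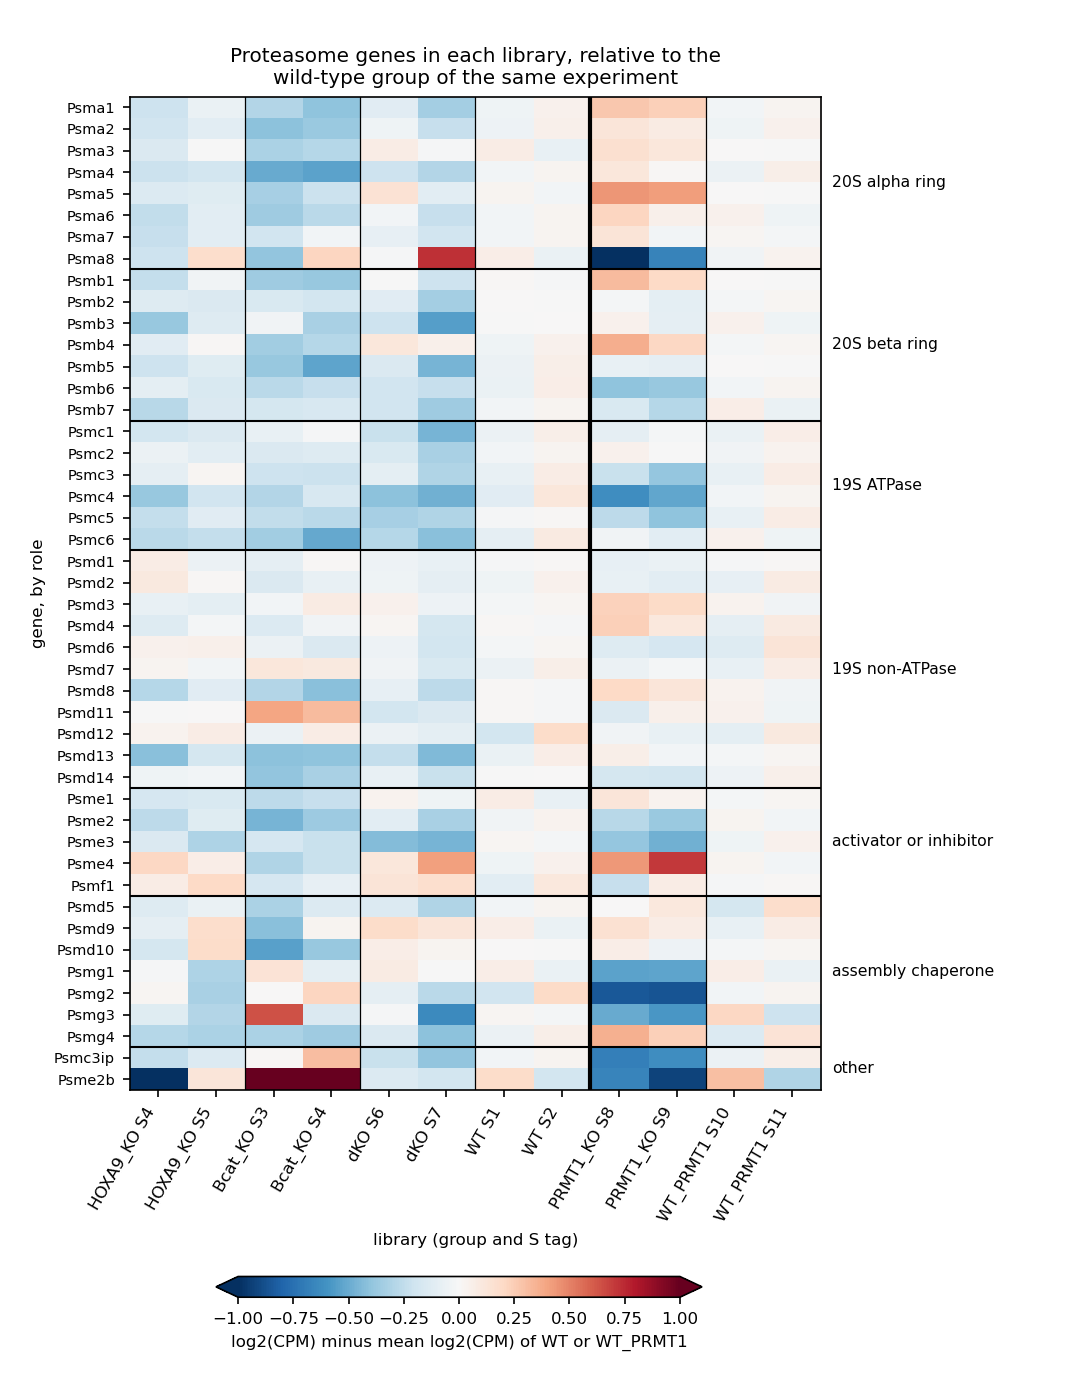
Level of each of the 46 genes (rows, by role) in each of the 12 libraries (columns, group and S tag). Values are log2 CPM minus the mean log2 CPM of WT or, right of the heavy line, of WT_PRMT1. Colours end at 1 in either direction. Psme2b in Bcat_KO and in HOXA9_KO S4 (-1.03), and Psma8 in PRMT1_KO S8 (-1.57), lie beyond. Blue runs through the alpha and beta rings in both Bcat_KO libraries, except Psma8 in S4, and through the ATPases in both dKO libraries. In PRMT1_KO 7 of the 8 alpha genes are red, except that Psma7 is faintly blue in S9, and Psma8 is blue. There 5 of the 6 ATPases are blue.

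Library depth was 17569709 to 40553891 counts, with the Bcat_KO libraries the deepest. Hoxa9 mRNA stood at 12.2 and 8.36 CPM in HOXA9_KO and 9.21 and 8.92 in dKO, against 58.7 and 59.9 in WT. Ctnnb1 stood at 276 and 267 CPM in Bcat_KO and 227 and 235 in dKO, against 315 and 342 in WT. Prmt1 stood at 118 and 112 CPM in PRMT1_KO, against 283 and 292 in WT_PRMT1. All 8 LSK markers were detected in every group, but their levels differed. Flt3 stood at 133 and 82.9 CPM in dKO, 162 and 167 in HOXA9_KO, and 253 and 264 in Bcat_KO, against 537 and 421 in WT. Cd34 stood at 260.4 and 191 CPM in dKO, 422 and 345 in HOXA9_KO, and 742 and 769 in Bcat_KO, against 765 and 715 in WT. Slamf1 stood at 43.7 and 67.6 CPM in dKO, 42.3 and 38.3 in HOXA9_KO, and 15.3 and 16.1 in Bcat_KO, against 8.32 and 7.87 in WT. Kit was higher in every library of HOXA9_KO, Bcat_KO and dKO than in WT. In PRMT1_KO Kit stood at 330.3 and 308 CPM, against 144 and 139 in WT_PRMT1, and Ly6a at 298 and 270.3, against 99.6 and 86.9. Cd48 went the other way, at 84.0 and 82.5 CPM in PRMT1_KO, against 149 and 161 in WT_PRMT1. Sex-linked genes went with the groups: Xist was at 0 to 21.9 CPM in the 4 knockout groups, against 163 to 202 in both wild-type groups, and Ddx3y at 60.6 to 93.5, against 0.792 to 2.87. Summed over 8 markers each, neutrophil genes ranged over 73.8 to 1132 CPM in HOXA9_KO, 16.5 to 28.3 in Bcat_KO (Ltf, Mmp9 and Retnlg at 0) and 1479 to 2301 in dKO, against 434 to 1687 in WT, and over 1891 to 2264 CPM in PRMT1_KO, against 672 to 737 in WT_PRMT1. B cell genes ranged over 190.3 to 386 CPM in HOXA9_KO, 70.7 to 73.0 in Bcat_KO and 66.4 to 145 in dKO, against 706 to 878 in WT, and over 82.4 to 83.4 in PRMT1_KO, against 912 to 952 in WT_PRMT1. Erythroid genes ranged over 168 to 268 CPM in HOXA9_KO, 27.2 to 39.0 in Bcat_KO and 183 to 397 in dKO, against 318 to 1256 in WT, and over 64.6 to 70.9 in PRMT1_KO, against 593 to 667 in WT_PRMT1. Dendritic cell genes ranged over 971 to 1748 CPM in HOXA9_KO, 601 to 641 in Bcat_KO and 1130 to 2925 in dKO, against 1556 to 1603 in WT, and over 1073 to 1210 in PRMT1_KO, against 4844 to 5098 in WT_PRMT1. Macrophage and monocyte genes ranged over 745 to 790 CPM in PRMT1_KO, against 263 to 280 in WT_PRMT1, and stromal and endothelial genes over 30.9 to 33.2, against 289 to 560. Olfactory and vomeronasal receptor genes summed to 11.2 to 15.2 CPM in Bcat_KO, against 137 to 181 in WT. The part of these differences in the results below was not tested, and in bulk RNA fewer cells of a type and less RNA per cell cannot be told apart.

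In Bcat_KO, mRNA of most core particle subunits was lower. In Bcat_KO against WT, 18 members fell and 2 rose, where a call is an adjusted p below 0.05 (edgeR quasi-likelihood test, Benjamini-Hochberg over 17063 genes). In that comparison 17.2% of all tested genes were called, 9.76% lower and 7.48% higher. The genes that fell were 6 of 8 in the alpha ring (Psma1 to Psma6), 4 of 7 in the beta ring (Psmb1, Psmb4, Psmb5 and Psmb6), 2 of 6 ATPases (Psmc5 and Psmc6) and 3 of 11 non-ATPases (Psmd8, Psmd13 and Psmd14). The 11S subunits Psme1 and Psme2 and the chaperone Psmd10 completed the list. The median log2 change was -0.20 over the 46 members, 38 of them below 0, and -0.04 over all genes tested. Protein-coding genes of at least 20 CPM were called lower in 12.3% and higher in 12.5%. Of the 42 members of that level, 18 were called lower and 1 higher.

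Psma4, the alpha subunit whose tail closes most of the gate, stood at 110.1 and 108 CPM in Bcat_KO, against 153 and 159 in WT. Both Bcat_KO libraries lay below every library of the other groups, and the change was -0.52 ± 0.08 (SE, adjusted p = 0.000402, edgeR). Psma2 stood at 153 and 157 CPM in Bcat_KO, against 197 and 211 in WT, and fell by 0.39 ± 0.08 on the log2 scale (adjusted p = 0.00437, edgeR). Summed over the 8 alpha genes, Bcat_KO held 1062 and 1101 CPM, against 1323 and 1347 in WT. This was not particular to the ring or the group. The beta, ATPase and non-ATPase sums were also below WT in both Bcat_KO libraries. All of these sums were below WT in HOXA9_KO and dKO as well, with 1162 and 1250 CPM for the alpha genes in HOXA9_KO.

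Of the cutting subunits, Psmb5, which carries the chymotrypsin-like site, stood at 72.1 and 64.9 CPM in Bcat_KO, against 89.8 and 97.7 in WT. The log2 change was -0.45 ± 0.11 (adjusted p = 0.00798, edgeR). Psmb6, with the caspase-like site, stood at 136 and 140.3 CPM in Bcat_KO, against 157 and 172 in WT (-0.25 ± 0.08, adjusted p = 0.0371, edgeR). Psmb7, with the trypsin-like site, did not pass the test at -0.17 ± 0.09. The beta genes summed to 954 and 933 CPM in Bcat_KO, against 1126 and 1166 in WT.

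In the regulatory particle the changes were mixed. The ATPase Psmc6 stood at 98.6 and 87.7 CPM in Bcat_KO, against 118 and 133 in WT (-0.43 ± 0.09, adjusted p = 0.00470, edgeR). Psmd14, the enzyme that clips ubiquitin chains off the substrate, stood at 96.0 and 101 CPM in Bcat_KO, against 126 and 127 in WT (-0.36 ± 0.08, adjusted p = 0.00751, edgeR). Psmd11, a lid subunit that braces the regulatory particle against the core, went the other way. It stood at 95.1 and 89.9 CPM in Bcat_KO, against 72.7 and 71.9 in WT, and rose by 0.36 ± 0.09 (adjusted p = 0.0172, edgeR). Both Bcat_KO libraries were above all 10 others, and 4.26% as many counts as Psmd11 had lay in its transcribed copy A730017L22Rik.

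The 11S cap subunit Psme2 stood at 126 and 135 CPM in Bcat_KO, against 169.6 and 178 in WT (-0.41 ± 0.09, adjusted p = 0.00524, edgeR), and its partner Psme1 at 299.8 and 306 CPM, against 377 and 342 (-0.25 ± 0.07, adjusted p = 0.0299). Psme2b, the copy of Psme2, was the other member that rose, with 18.7 and 22.6 CPM in Bcat_KO, against 3.03 and 2.36 in WT (2.94 ± 0.38, adjusted p = 7.53e-05, edgeR). No library outside Bcat_KO passed 3.34 CPM. How the authors' counting divided reads between the copy and its parent was not tested. The chaperone Psmd10 (gankyrin, which binds the ATPase Psmc4 during assembly) stood at 24.9 and 28.0 CPM in Bcat_KO, against 36.4 and 36.2 in WT (-0.46 ± 0.14, adjusted p = 0.0309, edgeR), and it lies on the X chromosome.

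Many of these calls depended on single libraries and on gene length. The 20 calls became 4 without WT S2, 12 without WT S1, 10 without Bcat_KO S3 and 8 without Bcat_KO S4, and Psma4 and Psme2b were called in each of these refits. Without WT S2 the adjusted p was 0.0594 for Psma2, 0.0824 for Psmb5, 0.277 for Psmb6, 0.0773 for Psmc6, 0.0561 for Psmd14, 0.0538 for Psme2 and 0.118 for Psmd11 (edgeR). Without Bcat_KO S3 it was 0.148 for Psmd10, and without WT S1 0.229 for Psme1. Short genes were lower in Bcat_KO in general: among protein-coding genes of at least 20 CPM the median log2 change was -0.26 up to 1500 bases of exon, with 34.0% called lower, and 0.10 above 6000 bases. The 8 members of up to 1500 bases had a median of -0.29, and at 3000 to 4000 bases 7 members had a median of -0.36, against -0.05 for all 1059 genes of that class. With the length trend removed from every library 11 members were called lower, 10 of them among the 18. With length and GC trends removed 6 were, and Psma4, Psmb1, Psmd8, Psmd13 and Psme2 were the 5 shared with the 18.

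**Figure D2:**
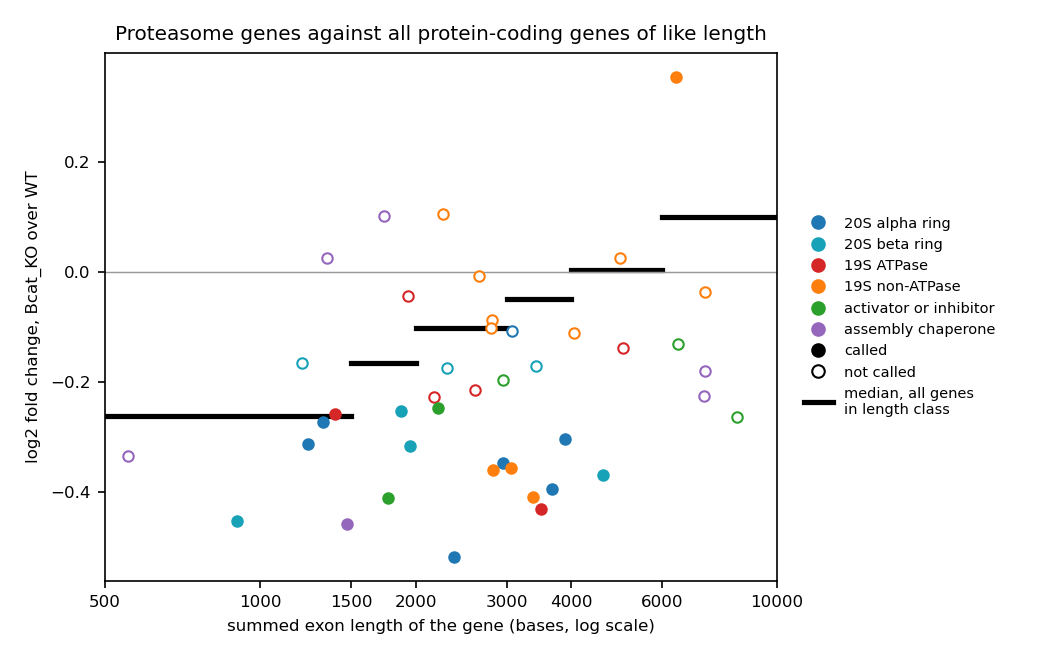
Log2 fold change of Bcat_KO over WT (vertical axis) against summed exon length in bases (horizontal, log scale) for the 42 members of at least 20 CPM, coloured by role, filled where called; black lines are medians of all protein-coding genes in each length class. The black lines climb with length while most alpha and beta subunits lie beneath them. The median member of any role at 3000 to 4000 bases is at -0.36, in the class with the widest gap.

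No member was called in HOXA9_KO against WT, where 6.73% of all tested genes were (4.44% higher and 2.3% lower). At an unadjusted p below 0.05 with edgeR the count was 9 of 46, beside 3275 of all 17063 tested genes. All 9 were lower in HOXA9_KO (Psma4, Psmb7, Psmc4, Psmc6, Psmd8, Psmd13, Psme1, Psme2 and Psme3). DESeq2 called 3 members, all lower (Psmc4, Psmd13 and Psme3), where it called 4.18% of all genes lower and 5.47% higher. The median over the members was -0.14, with 38 of 46 below 0, and -0.0041 over all genes tested. Psmd13, a lid subunit, stood at 116 and 137 CPM in HOXA9_KO, against 148 and 163 in WT (-0.29 ± 0.10, adjusted p = 0.0829, edgeR). The ATPase Psmc4 stood at 114 and 130.4 CPM in HOXA9_KO, against 137 and 161 in WT (-0.29 ± 0.10, adjusted p = 0.0911, edgeR). The groups did not overlap for either gene, but the WT libraries also lay apart from each other. Psmb5 was at -0.16 ± 0.11, Psmb6 at -0.12 ± 0.08 and Psmb7 at -0.21 ± 0.09, and Psme1 and Psme2 at -0.17 ± 0.07 and -0.19 ± 0.09, none of them called. The length trend was present here too, with a median of -0.15 for all genes up to 1500 bases and -0.16 for the 8 members of that class.

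**Figure D3:**
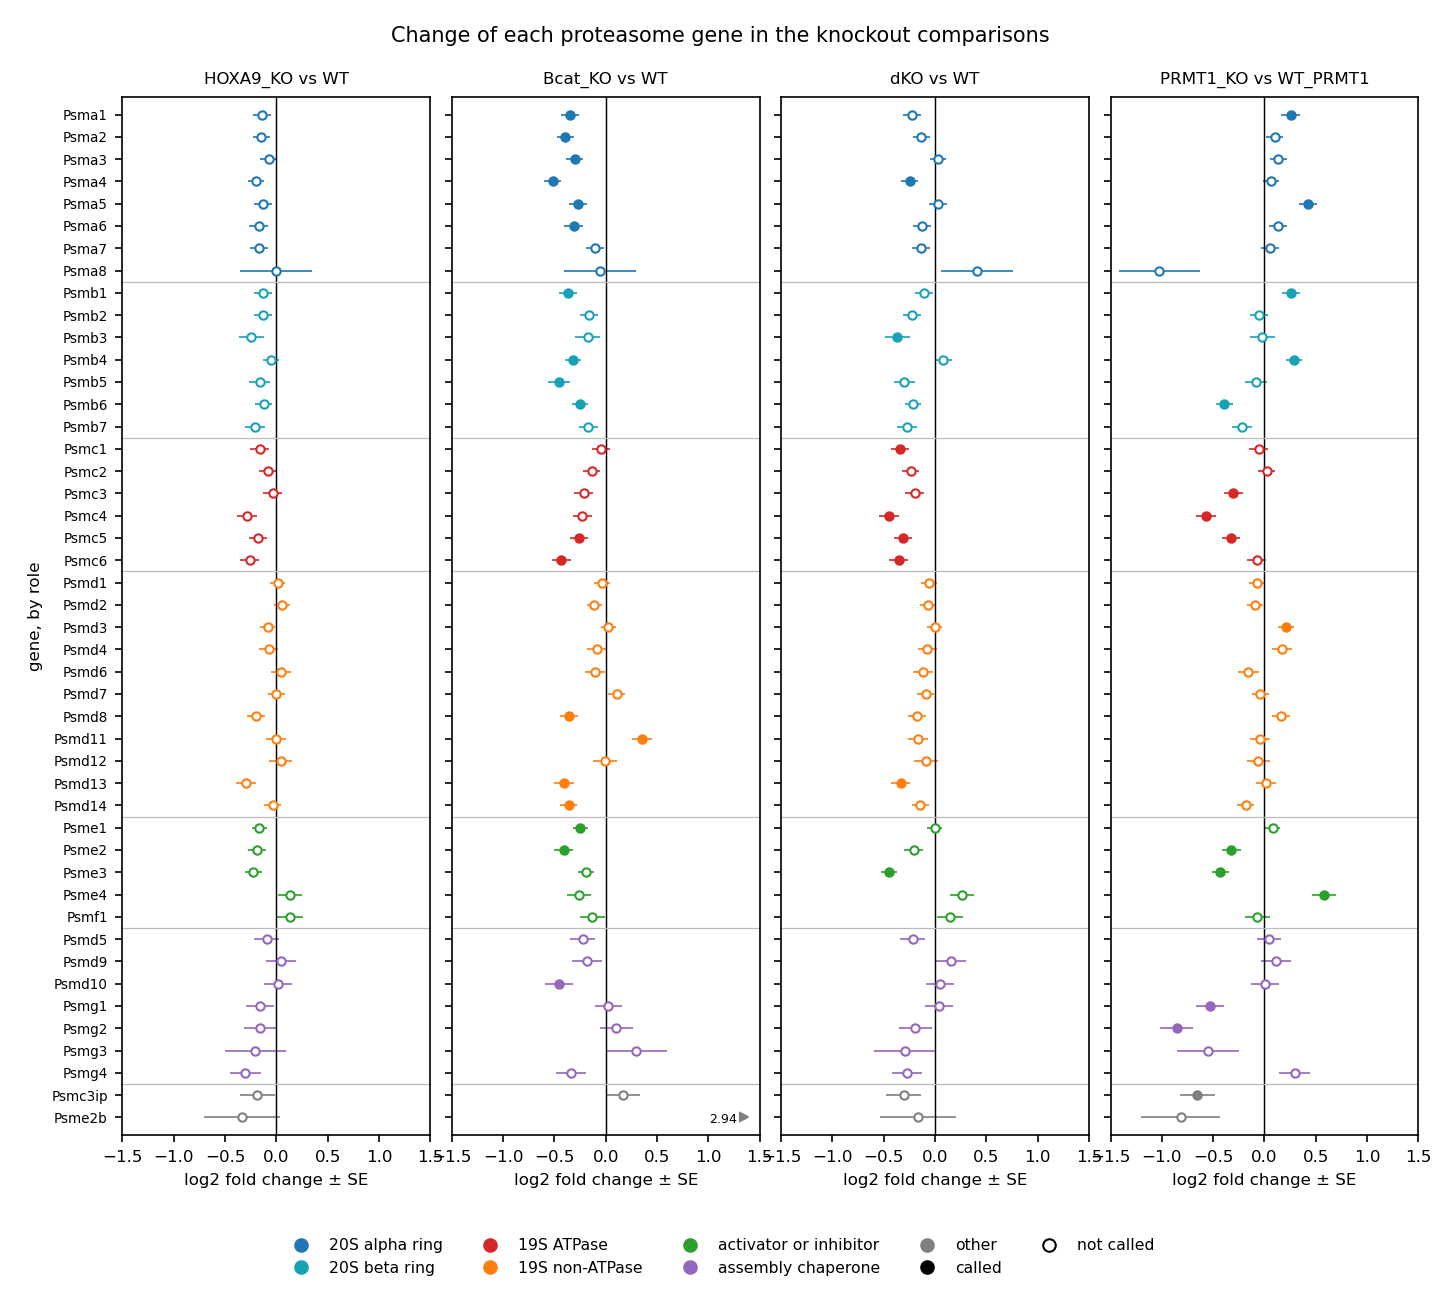
Log2 fold change ± SE (horizontal axis) of the 46 genes, ordered and coloured by role, in the 4 knockout comparisons (n = 2 libraries a group); filled points are called by edgeR and the arrowhead at 2.94 is Psme2b, beyond the axis. Filled points gather in the alpha and beta rings in Bcat_KO, in the ATPases in dKO, and on both sides of 0 in PRMT1_KO, and there are none in HOXA9_KO.

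In the double knockout, mRNA of most ATPases was lower. In dKO 8 members fell and none rose, with 17.7% of all tested genes called (8.52% lower and 9.15% higher). Protein-coding genes of at least 20 CPM were called lower in 15.6% and higher in 13.8%, and 42 members, including all 8, were of that level. The median over the members was -0.17, against 0.0069 over all genes. The ATPases held 4 of the 8 (Psmc1, Psmc4, Psmc5 and Psmc6 of 6), and Psma4, Psmb3, Psmd13 and Psme3 were the others. The ATPase genes summed to 835 and 755 CPM in dKO, against 938 and 1025 in WT.

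Psmc4 stood at 112 and 107 CPM in dKO, against 137 and 161 in WT, and fell by 0.45 ± 0.10 (adjusted p = 0.00323, edgeR). Psmc1 stood at 164 and 139 CPM in dKO, against 184 and 201 in WT (-0.34 ± 0.09, adjusted p = 0.0127, edgeR). In both, each dKO library was below each WT library, which was a condition for naming them and so adds no support. Psmc6 changed by -0.35 ± 0.09 (adjusted p = 0.0122), Psmc5 by -0.32 ± 0.09 (0.0160) and Psmd13 by -0.34 ± 0.10 (0.0213). Psme3, the nuclear cap subunit known as REG gamma, stood at 187 and 184 CPM in dKO, against 257 and 249 in WT. Both dKO libraries were below every library of HOXA9_KO, Bcat_KO and WT. The change of -0.45 ± 0.08 (adjusted p = 0.000678, edgeR) was called in all 4 refits that left out a library.

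The cutting subunits did not pass in dKO, with Psmb5 at -0.30 ± 0.11 (adjusted p = 0.0621), Psmb6 at -0.21 ± 0.08 (0.0758) and Psmb7 at -0.27 ± 0.09 (0.0538, edgeR). Psme2 was at -0.21 ± 0.09 and Psme1 at -0.0040 ± 0.07, also not called. The dKO libraries were unlike each other: S7 was lower than S6 in 755 against 835 CPM of ATPase genes and in 1166 against 1302 CPM of alpha genes. Without dKO S6 15 members were called (14 lower), without dKO S7 2, without WT S1 5 and without WT S2 1. Without WT S2 the adjusted p was 0.123 for Psmc4, 0.221 for Psmc1, 0.272 for Psmc6, 0.164 for Psmc5 and 0.292 for Psmd13 (edgeR). With the length trend removed 6 members were called and with length and GC removed 4, all lower.

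Against HOXA9_KO, dKO showed no called member, where 1.75% of tested genes were called (0.416% higher and 1.33% lower). With edgeR 2 of 46 were at an unadjusted p below 0.05 (Psme3 at -0.23 ± 0.08 and Psme1 at 0.16 ± 0.07), beside 2120 of all 17063 tested genes. DESeq2 called 0, where it called 1.30% of all genes higher and 2.29% lower. Against Bcat_KO, dKO had 9 members higher and 5 lower, with 28.1% of tested genes called (16.2% higher and 12% lower). The higher ones were Psma2 to Psma5, Psmb1 and Psmb4 of the core, Psme1, Psme4 and Psmd10, and the lower ones Psmc1, Psmd11, Psme3, Psmc3ip and Psme2b. Protein-coding genes of at least 20 CPM were called higher in 19.4% and lower in 20.6%. Of the 42 members of that level, 9 were called higher and 3 lower.

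Psmb4, a non-cutting beta subunit, stood at 302 and 288 CPM in dKO, against 219 and 229 in Bcat_KO (0.40 ± 0.08, adjusted p = 0.00138, edgeR). Psmd11 stood at 63.5 and 65.2 CPM in dKO, against 95.1 and 89.9 in Bcat_KO (-0.52 ± 0.09, adjusted p = 0.000615, edgeR). Psme4, the large cap also called PA200, stood at 62.1 and 76.3 CPM in dKO, against 46.7 and 49.3 in Bcat_KO (0.53 ± 0.12, adjusted p = 0.00304, edgeR). In all 3 genes the libraries of dKO and Bcat_KO did not overlap, which was a condition for naming them and so adds no support. Scaling by total counts gave 4 higher and 7 lower in place of 9 and 5. Removing the length trend gave 7 and 7. The 14 calls became 6 without Bcat_KO S3, 8 without Bcat_KO S4, 8 without dKO S6 and 11 without dKO S7, with Psme4 at an adjusted p of 0.0579 in the last of these.

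Bcat_KO against HOXA9_KO gave 2 members higher (Psmd11 and Psme2b) and 5 lower (Psma4, Psmb4, Psmd14, Psme4 and Psmd10), with 17.3% of tested genes called (6.52% higher and 10.8% lower). Psma4 stood at 110.1 and 108 CPM in Bcat_KO, against 134 and 137 in HOXA9_KO (-0.32 ± 0.08, adjusted p = 0.0115, edgeR). Psmd10 stood at 24.9 and 28.0 CPM in Bcat_KO, against 32.1 and 41.2 in HOXA9_KO (-0.47 ± 0.14, adjusted p = 0.0253, edgeR). Both genes were lower in each Bcat_KO library than in each HOXA9_KO library, which was a condition for naming them. The 7 calls became 2 without Bcat_KO S3 or without HOXA9_KO S5, 4 without Bcat_KO S4 and 6 without HOXA9_KO S4. Psma4 was then at an adjusted p of up to 0.0674 (without Bcat_KO S4) and Psmd10 of up to 0.287 (without HOXA9_KO S5, edgeR).

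**Figure D4:**
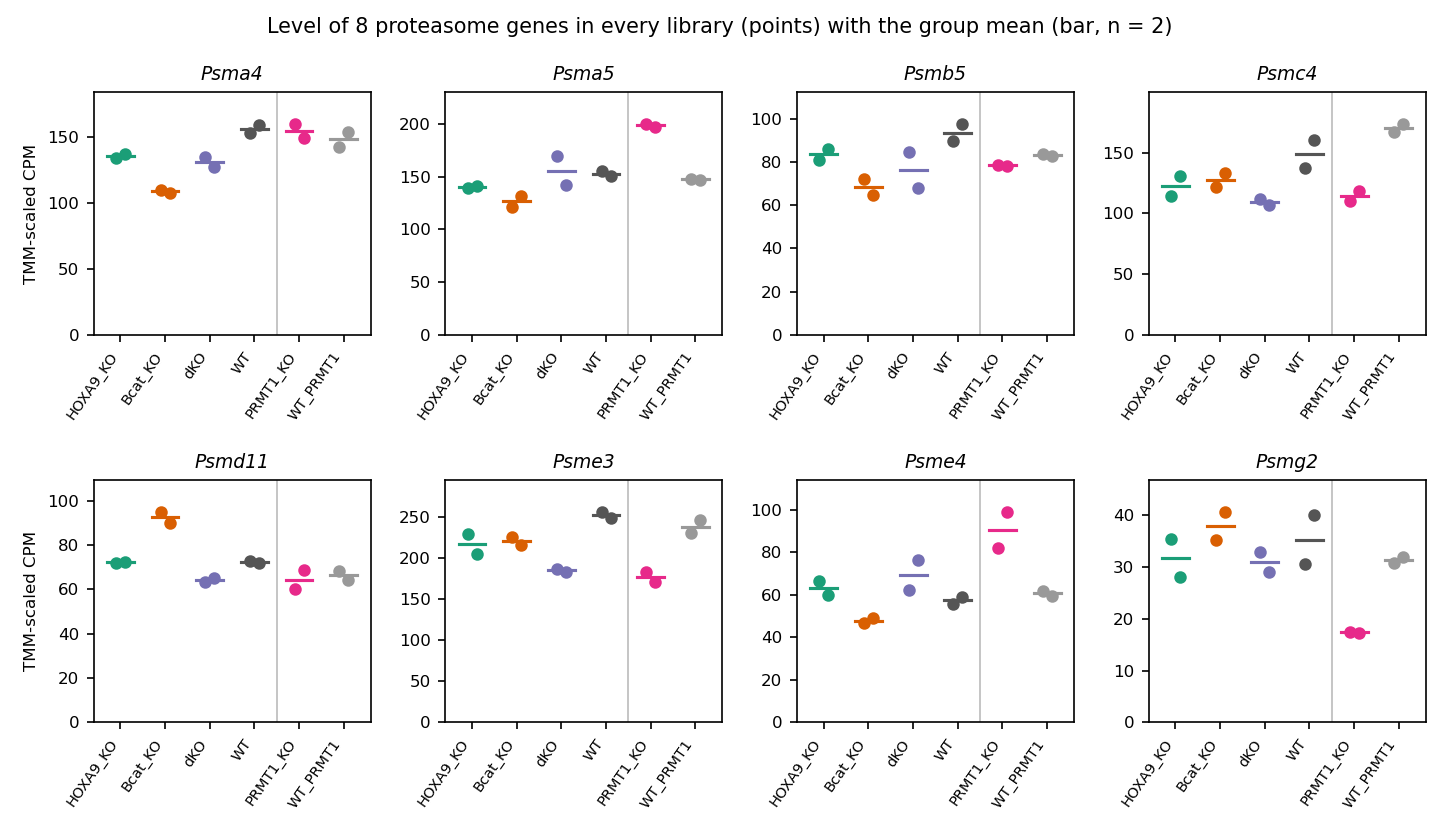
TMM-scaled CPM of 8 members in every library (points) and group mean (bars), with PRMT1_KO and WT_PRMT1 right of the grey line. The vertical axis of each panel starts at 0. Psma4 is lowest and Psmd11 highest in Bcat_KO, Psme3 is low in dKO and PRMT1_KO, and Psmg2 in PRMT1_KO stands at 17.5 and 17.3, against 30.9 and 32.0 in WT_PRMT1.

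HOXA9_KO, Bcat_KO, dKO and WT were used to ask whether the combined change equalled the sum of the single ones on the log2 scale. The measure is the change in dKO over HOXA9_KO minus the change in Bcat_KO over WT, and it was above 0 for 6 members and below 0 for 2 at an adjusted p below 0.05 (edgeR), with 8.43% of tested genes called (4.54% above 0 and 3.9% below). The 6 were the alpha subunits Psma2 (0.40 ± 0.12), Psma3 (0.41 ± 0.12), Psma4 (0.47 ± 0.11) and Psma5 (0.42 ± 0.12), the beta subunit Psmb4 (0.45 ± 0.11) and Psme1 (0.41 ± 0.10). Psmd11 (-0.52 ± 0.13) and Psme2b (-2.77 ± 0.52) were the 2 below 0. Among HOXA9_KO, Bcat_KO, dKO and WT, only WT had high Xist (182 and 163 CPM) and low Ddx3y (1.88 and 2.87 CPM). The measure carries that difference of WT from the rest, and it and a departure from additivity cannot be told apart here. Psma4 stood at 135 and 127 CPM in dKO, against 134 and 137 in HOXA9_KO, and at 110.1 and 108 in Bcat_KO, against 153 and 159 in WT. All 8 alpha and all 7 beta genes had values above 0, with a median of 0.41 over the alpha genes and 0.16 over the beta genes, against 0.04 over all genes tested. Short genes showed the same sign, with 0.28 for the median protein-coding gene up to 1500 bases and -0.16 above 6000 bases. With the length trend removed, 5 members were above 0 and 2 below, and with GC removed as well 2 and 2. Without a library the 8 calls became 2 (Bcat_KO S3), 3 (Bcat_KO S4), 3 (HOXA9_KO S4), 11 (HOXA9_KO S5), 3 (WT S1), 3 (WT S2), 2 (dKO S6) or 13 (dKO S7), and Psme2b was called in all 8 of these refits.

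In PRMT1_KO members were called in both directions, at shares near those of all tested genes. In PRMT1_KO against WT_PRMT1, 6 members rose (13.0%) and 9 fell (19.6%), and 32.5% of all tested genes were called (16.6% higher and 16% lower). Among protein-coding genes of at least 20 CPM, 28.0% were called higher and 23.7% lower. Of the 42 members of that level, 6 were called higher and 8 lower. The members that rose were Psma1, Psma5, Psmb1, Psmb4, the lid subunit Psmd3 and Psme4. Those that fell were Psmb6, the ATPases Psmc3, Psmc4 and Psmc5, the cap subunits Psme2 and Psme3, the chaperones Psmg1 and Psmg2, and Psmc3ip. The median log2 change was -0.05 over the members and -0.03 over all genes tested. No alpha subunit was called lower and no ATPase higher, except that Psma8 (-1.03 ± 0.39, adjusted p = 0.0547, edgeR) was called lower with library-size scaling, at -1.16.

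Psma5, an alpha subunit, stood at 199.95 and 197 CPM in PRMT1_KO, against 148 and 147 in WT_PRMT1 (0.43 ± 0.09, adjusted p = 0.00107, edgeR). Psme4 stood at 82.2 and 99.2 CPM in PRMT1_KO, against 62.0 and 59.4 in WT_PRMT1 (0.58 ± 0.12, adjusted p = 0.000973, edgeR). For both genes the PRMT1_KO libraries were the highest 2 of all 12. Psmb4 stood at 325 and 292 CPM in PRMT1_KO, against 249 and 257 in WT_PRMT1 (0.29 ± 0.08, called by edgeR).

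Psmb6 was the cutting subunit that changed, with 118 and 120.1 CPM in PRMT1_KO, against 153 and 159.6 in WT_PRMT1 (-0.39 ± 0.08, adjusted p = 0.000938, edgeR). Psmb5 was at -0.08 ± 0.11 and Psmb7 at -0.22 ± 0.09, neither of them called. Psmc4 stood at 110.4 and 119 CPM in PRMT1_KO, against 167 and 174 in WT_PRMT1, a change of -0.57 ± 0.10 (adjusted p = 0.000175, edgeR). The libraries of the groups did not overlap, which was a condition for naming Psmc4 and so adds no support. Psme3 stood at 183 and 171 CPM in PRMT1_KO, against 231 and 246 in WT_PRMT1 (-0.43 ± 0.08, adjusted p = 0.000435, edgeR). Psme2 was at -0.32 ± 0.09 (adjusted p = 0.00989) while its partner Psme1 was at 0.08 ± 0.07 and not called.

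Psmg1 and Psmg2 form the chaperone pair on which the alpha ring is assembled, and both were lower in PRMT1_KO. Psmg2 stood at 17.5 and 17.3 CPM in PRMT1_KO, against 30.9 and 32.0 in WT_PRMT1 (-0.86 ± 0.16, adjusted p = 0.000513, edgeR). Psmg1 stood at 20.1 and 20.2 CPM in PRMT1_KO, against 30.4 and 27.9 in WT_PRMT1 (-0.53 ± 0.14, adjusted p = 0.00597, edgeR). Of the other pair, Psmg3 was at -0.55 ± 0.30 and Psmg4 at 0.29 ± 0.15, not called. Psmc3ip stood at 13.5 and 14.0 CPM in PRMT1_KO, against 20.8 and 22.5 in WT_PRMT1 (-0.65 ± 0.17, adjusted p = 0.00640, edgeR).

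Scaling by total counts moved the median of all genes in this comparison to -0.17, and then 2 members were called higher (Psma5 and Psme4) and 14 lower, in place of 6 and 9. Psma1, Psmb1, Psmb4 and Psmd3 remained above 0 there, at 0.11, 0.12, 0.14 and 0.07, and were not called. After removal of the length and GC trends 6 were higher and 9 lower. The 15 calls became 10 without PRMT1_KO S8, 11 without PRMT1_KO S9, and 9 without WT_PRMT1 S10 or WT_PRMT1 S11. Psma5, Psmb6, Psmc4, Psme3, Psme4 and Psmg2 were called in all 4 refits, while the adjusted p reached 0.148 for Psmb4 (without PRMT1_KO S8), 0.113 for Psme2 (without PRMT1_KO S9), 0.0668 for Psmg1 (without WT_PRMT1 S10) and 0.0753 for Psmc3ip (without WT_PRMT1 S11, edgeR).

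The series title ties the loss of β-catenin and Hoxa9 to Prmt1, so the change in dKO over WT was set against the change in PRMT1_KO over WT_PRMT1. The difference was called for 2 members, Psma1 (-0.48 ± 0.13, adjusted p = 0.0146) and Psma5 (-0.40 ± 0.12, adjusted p = 0.0360, edgeR), with 15.7% of tested genes called (7.93% higher and 7.75% lower). Psma1 stood at 188 and 159.95 CPM in dKO, against 197 and 209 in WT, whereas it stood at 235 and 230.1 CPM in PRMT1_KO, against 192 and 198 in WT_PRMT1. Psmc4, Psmc5 and Psme3 were called lower in both comparisons, at -0.45, -0.32 and -0.45 in dKO and at -0.57, -0.33 and -0.43 in PRMT1_KO, and the difference was not called for any of them. The 2 calls became 10 without dKO S6 and 0 without PRMT1_KO S8, remained 2 in number without PRMT1_KO S9, and became 1 without any of the other 5 libraries.

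The wild-type groups were themselves apart for 2 members, with 7.58% of tested genes called in WT_PRMT1 against WT (3.71% higher and 3.87% lower). Psmg1 stood at 30.4 and 27.9 CPM in WT_PRMT1, against 46.4 and 42.5 in WT (-0.61 ± 0.14, adjusted p = 0.00902, edgeR). Psma8 stood at 2.49 and 2.61 CPM in WT_PRMT1, against 7.01 and 6.39 in WT (-1.39 ± 0.37, adjusted p = 0.0262, edgeR). Psmg1 was thus lower in each WT_PRMT1 library than in any library of HOXA9_KO, Bcat_KO, dKO and WT. The calls became 0 without WT S1 or WT_PRMT1 S11 and 1 without WT S2 or WT_PRMT1 S10.

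The genes around the proteasome were described from lists written with earlier results of these data known. All 3 immunoproteasome subunits were called lower in Bcat_KO, as were 9.76% of all tested genes. Psmb10 stood at 121 and 127 CPM in Bcat_KO, against 156 and 170.1 in WT (-0.39 ± 0.10, adjusted p = 0.0121, edgeR). Psmb8 (-0.28 ± 0.09, adjusted p = 0.0480) and Psmb9 (-0.44 ± 0.14, 0.0485) lost their calls in all 4 refits without a library. With the length trend removed none of the 3 was called, at an adjusted p of 0.0680 for Psmb8, 0.0504 for Psmb9 and 0.0894 for Psmb10, which was then at -0.24. None of the 3 was called in HOXA9_KO, dKO or PRMT1_KO against its wild type. The share of all tested genes called was 6.73% in HOXA9_KO, 17.7% in dKO and 32.5% in PRMT1_KO.

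Of 9 other partners, Sem1 (a small lid subunit) and Pomp (the chaperone of beta ring maturation) fell and Adrm1 (a ubiquitin receptor) rose in Bcat_KO. In that comparison 9.76% of all tested genes were lower and 7.48% higher. Sem1 stood at 109 and 113 CPM in Bcat_KO, against 172 and 143 in WT (-0.50 ± 0.10, adjusted p = 0.00338, edgeR). Pomp was at -0.32 ± 0.09 (adjusted p = 0.0195) and Adrm1 at 0.31 ± 0.09 (adjusted p = 0.0308). Uchl5, a deubiquitinase of the regulatory particle, was the single partner called in dKO, at -0.40 ± 0.09, where 17.7% of all tested genes were called. It also fell in PRMT1_KO, by 0.41 ± 0.09. In PRMT1_KO Txnl1, a thioredoxin of the regulatory particle, fell as well (-0.38 ± 0.08) and Zfand5 rose (0.56 ± 0.16). There 16% of all tested genes were lower and 16.6% higher.

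Nfe2l1, the factor that induces proteasome genes, was higher in all 4 knockout groups. It stood at 107 and 120.1 CPM in dKO, against 71.4 and 76.6 in WT (0.62 ± 0.11, adjusted p = 0.000601, edgeR). The change was 0.38 ± 0.11 in HOXA9_KO (adjusted p = 0.0443), 0.34 ± 0.11 in Bcat_KO (0.0391) and 0.41 ± 0.11 in PRMT1_KO (0.00707), but without HOXA9_KO S4 the first was at an adjusted p of 0.346, without Bcat_KO S3 the second at 0.303 and without WT_PRMT1 S11 the third at 0.0852. With library-size scaling the values in HOXA9_KO and PRMT1_KO were not called (adjusted p = 0.0678 and 0.0981). With the length trend removed those in HOXA9_KO and Bcat_KO were not called (adjusted p = 0.0807 and 0.0549), nor with length and GC removed (0.101 and 0.108), so the call in dKO was the one that held in all of these refits. All comparisons of HOXA9_KO, Bcat_KO and dKO with WT share the same WT libraries.

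Ngly1, which removes sugars from Nfe2l1 and so lets it act, stood at 40.2 and 34.9 CPM in Bcat_KO, against 55.8 and 59.1 in WT (-0.61 ± 0.11, adjusted p = 0.000949, edgeR). It stood at 41.5 and 42.7 CPM in PRMT1_KO, against 73.5 and 76.1 in WT_PRMT1 (-0.83 ± 0.11, adjusted p = 1.16e-05, edgeR). Both falls were called in every refit that left out a library. Ddi2, the protease that cuts Nfe2l1 free, stood at 76.1 and 82.9 CPM in PRMT1_KO, against 40.4 and 38.4 in WT_PRMT1 (1.01 ± 0.11, adjusted p = 2.15e-06, edgeR). Hsf1, the heat shock factor, stood at 32.8 CPM in both PRMT1_KO libraries, against 59.1 and 67.7 in WT_PRMT1 (-0.95 ± 0.12, adjusted p = 7.38e-06, edgeR). In all, 3 of the 6 regulators rose and 2 fell in PRMT1_KO, where 32.5% of tested genes were called.

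Among the 4 ubiquitin genes, Ubb stood at 909.5 and 1055 CPM in HOXA9_KO and 985 and 919.9 in dKO, against 1412 and 1419.6 in WT. The log2 change was -0.53 ± 0.08 for HOXA9_KO (adjusted p = 0.000523) and -0.57 ± 0.08 for dKO (adjusted p = 9.13e-05, edgeR), while WT_PRMT1 itself was lower than WT by a log2 difference of -0.48 ± 0.08. Rps27a, which encodes ubiquitin fused to a ribosomal protein, rose in PRMT1_KO (0.55 ± 0.06) and fell in Bcat_KO (-0.25 ± 0.06), where it was at -0.11 and not called with the length trend removed. Both ubiquitin-activating enzymes fell in PRMT1_KO, with Uba1 at -0.31 ± 0.07 (adjusted p = 0.00130) and Uba6 at -0.44 ± 0.16 (0.0493, edgeR). There 16% of all tested genes were lower and 16.6% higher.

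Of the 9 tested p97 and shuttle genes, which extract tagged proteins and carry them to the proteasome, 5 fell and 1 rose in PRMT1_KO, where 16% of all tested genes were lower and 16.6% higher. In Bcat_KO Nploc4 (0.37 ± 0.10) and the p97 cofactor Nsfl1c (0.34 ± 0.09) rose, where 7.48% of all tested genes were higher. Ubqln2, a shuttle factor, stood at 38.8 and 40.3 CPM in PRMT1_KO, against 75.0 and 63.7 in WT_PRMT1 (-0.81 ± 0.12, adjusted p = 4.38e-05, edgeR). Its relative Ubqln1 was at -0.24 ± 0.08 (adjusted p = 0.0245, edgeR). None of the 9 was called in HOXA9_KO or dKO against WT, where 6.73% and 17.7% of all tested genes were called.

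Some of the calls around the proteasome also rested on single libraries. In Bcat_KO the adjusted p reached 0.110 for Psmb10, 0.113 for Pomp and 0.113 for Nploc4 without WT S2, and 0.0531 for Sem1 without WT S1. It reached 0.265 for Adrm1, 0.118 for Rps27a and 0.223 for Nsfl1c without Bcat_KO S4. In dKO it was 0.0654 for Uchl5 without WT S2. In PRMT1_KO it reached 0.0563 for Txnl1 without WT_PRMT1 S11, 0.139 for Zfand5 without PRMT1_KO S9, 0.294 for Uba6 without PRMT1_KO S8 and 0.219 for Ubqln1 without WT_PRMT1 S10 (edgeR). Ubb in HOXA9_KO and dKO, Nfe2l1 in dKO, Ngly1 in Bcat_KO, and Uchl5, Ngly1, Ddi2, Hsf1, Rps27a, Uba1 and Ubqln2 in PRMT1_KO were called in all 4 refits.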

How the data were processed

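The authors deposited raw counts per gene. The submitters' processing notes name Trim Galore 0.6.6, STAR 2.7.6a, featureCounts and GRCm38 (mm10), with annotation release, strand setting and handling of read pairs not given in the sources used here. Between libraries, even values were 67.1 to 75.9% of nonzero counts, and both mates of a pair may have been counted. Columns called control were taken to be WT, and column names carry S tags in place of replicate numbers.

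Of 55471 gene identifiers 55230 were matched to GENCODE M21, and the 241 others held 0.0044% of the counts. Testing used edgeR 4.0.16 under R 4.3.3: filterByExpr at a minimum count of 10, TMM scaling, and a robust quasi-likelihood fit with 1 mean per group over all 12 libraries (6 residual degrees of freedom). Adjusted p-values are Benjamini-Hochberg over 17063 genes, with a threshold of 0.05, and SE is the SE of the log2 change. CPM values are TMM-scaled. The test was tried on simulated data first. Near-identical copies were sought with blastn 2.17.0 in the transcripts (95% identity over 200 bases).

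Alternatives were RLE and library-size scaling, other filters, only the groups compared, DESeq2 1.42.0 and leaving out each library. A fit without the robust prior and removal of length and GC trends (lowess, span 0.3) were chosen after seeing the data. Members and lists were chosen with earlier results of these data known. Each comparison names up to 6 called members per direction with the smallest p whose libraries do not overlap, members that move against their role group, Psmb5 to Psmb7, Psme1 and Psme2, and up to 2 called genes per pathway list and direction. Other called members are listed by role, and the promoters shown, Psmc4 and Psmd13 in HOXA9_KO, and the relatives Ubqln1, Psmg3 and Psmg4 were chosen after their values were seen. A gene that the rule named is not reported here.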

Additional observations from a re-analysis of the deposited data

Results flagged for a closer look

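In 10 cases a member's change differed between settings by a test of the difference itself (edgeR, adjusted p below 0.05), all given above with their SE. The difference between dKO and HOXA9_KO was not the same as that between Bcat_KO and WT for Psma2 (0.40), Psma3 (0.41), Psma4 (0.47), Psma5 (0.42), Psmb4 (0.45) and Psme1 (0.41), which were called lower in Bcat_KO against WT and were not called in dKO against HOXA9_KO. Psmd11 (-0.52) and Psme2b (-2.77) were the reverse case, higher in Bcat_KO than in WT and not called in dKO against HOXA9_KO. Xist and Ddx3y levels separated Bcat_KO from WT but not dKO from HOXA9_KO, and their part in this was not tested. The changes in dKO and PRMT1_KO, each against its own wild type, differed for Psma1 (-0.48) and Psma5 (-0.40), both higher in PRMT1_KO. Psma5 thus appears in both sets, with 169 and 142 CPM in dKO, 121 and 132 in Bcat_KO, 139 and 141 in HOXA9_KO and 155 and 150.2 in WT, beside 199.95 and 197 in PRMT1_KO and 148 and 147 in WT_PRMT1. Its departure from additivity was not called with the length trend removed (0.22, adjusted p = 0.253).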

How the results depend on the processing

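No paired analysis was possible because the table's columns carry S tags and not the replicate numbers of the titles. No named change reversed: of 768 refits of 56 named changes 583 gave the same call and 185 lost it, and 15 changes were called in every refit. Counts of called members moved by over 1.5 times as follows; the cause was not tested. For HOXA9_KO against WT DESeq2 gave 3. For Bcat_KO against WT removal of the length trend gave 13 and of length and GC trends 8. For dKO against WT removal of both trends gave 4 and library-size scaling 13. A fit of only the groups compared gave 5 for dKO against Bcat_KO, 3 for Bcat_KO against HOXA9_KO, 6 for the dKO change minus the PRMT1_KO change and 4 for departure from additivity. Removal of both trends gave 3 for Bcat_KO against HOXA9_KO and 4 for departure from additivity, for which library-size scaling gave 4 and the fit without a robust prior 5. For the difference between the dKO and PRMT1_KO changes DESeq2 gave 6, removal of the length trend 4, a filter at a mean of 5 CPM 4 and the fit without a robust prior 1. Leaving out a library gave 0 to 1 for HOXA9_KO against WT, 4 to 12 for Bcat_KO, 1 to 15 for dKO, 9 to 11 for PRMT1_KO, 0 for dKO against HOXA9_KO, 6 to 11 for dKO against Bcat_KO, 2 to 6 for Bcat_KO against HOXA9_KO, 0 to 1 for the wild-type groups, 2 to 13 for departure from additivity and 0 to 10 for the last difference. Where a group kept 1 library, it was taken to vary like the others. With 2 libraries a group, some larger changes were not called, such as Psma8 at -1.03 in PRMT1_KO, a gene of few counts.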
